A study of Mus musculus with 9 samples.

Results

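The 46 genes described here encode microtubule-associated proteins and regulators. They fall into lattice-binding MAPs, plus-end tracking proteins, the microtubule polymerase with the spindle assembly factors, stathmin, severing ATPases, MAP and tubulin kinases, minus-end and nucleation factors, the dynein and dynactin module, and tubulin-modifying enzymes. They were picked by name, leaving out kinesins and tubulins, and not by a rule on their values, but with earlier results of these data known. All 46 had a row among the 15526 genes of the deposited table, and 42 of them reached a mean normalised read count of at least 10 over the 9 libraries and were tested. Poly-A RNA was compared between wild type mouse ES cells (WT) and 2 lines of Kif2a knockout genotype (KO1 and KO2), with 3 libraries in each group. All 9 libraries came from untreated ES cells labelled 129. The title of the series places the question in cell division, at the microtubules that join daughter cells. The sources used here do not say how the gene was knocked out or how the cells were grown. Each knockout line is a single line, so what differs between a line and WT through the knockout and what differs between any pair of lines cannot be told apart within that line.

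Microtubules are polymers of alpha- and beta-tubulin that grow and shrink mainly at their plus ends. KIF2A is a kinesin-13, a motor that does not walk but removes tubulin from microtubule ends. The proteins described here act on the same polymer from other sides: MAPs bind along the lattice, EB proteins mark growing plus ends and recruit partners there, XMAP215-type polymerases add tubulin, stathmin holds tubulin dimers out of the polymer, katanin and fidgetin cut it, CAMSAPs and gamma-tubulin complexes hold or start minus ends, and dynein moves cargo towards minus ends. In ES cells, which divide rapidly, many of them serve the mitotic spindle and the bridge between daughter cells.

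Kif2a itself was read at a normalised count of 109, 121 and 113 in WT, of 0.886, 1.16 and 0.957 in KO1 and of 1.06, 0.710 and 1.75 in KO2. The 6 knockout libraries averaged 0.952% of the WT level and did not overlap WT (p = 0.0238 by a two-sided exact permutation test over 84 assignments, which can give no smaller p). The level of the ES cell factor Pou5f1 was 2362 ± 99.99 for WT, 2317 ± 46.9 for KO1 and 2400 ± 61.5 for KO2 (normalised read count, mean ± SD, n = 3), and that of Nanog 1686 ± 27.1, 1692 ± 43.8 and 1624 ± 65.9. Neither was called in a line, while other pluripotency markers were, as given below. Reads recovered over the genes of the deposited table came to between 14960295 and 18814858 per library. Changes below are log2 fold changes ± SE from limma on the normalised read count plus 1, and a call means an adjusted p under 0.05 (Benjamini-Hochberg, over 10238 genes). The labels do not say whether libraries of 1 group came from separate cultures, so the p-values refer to the spread among these samples alone.

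Most microtubule regulators kept close to their WT level in both knockout lines, and the members that moved did so by at most 1.32-fold among those tested. In KO2 the plus-end protein Clip1, the dynein heavy chain gene Dync1h1, the MAP genes Map7 and Map4 and the TACC gene Tacc2 rose, while Gtse1, Stmn1 and Mapre1 fell. These 8 calls were 19.0% of the 42 members tested, where 18.5% of all genes tested were called in the same comparison, so the share called is near the background and is not a result about microtubule regulators as a group. Upward calls were 11.0% and downward calls 7.51% of all genes. On the recovered reads edgeR called 9 members (5 up, 4 down), where it called 18.4% of all genes with TMM factors (9.28% up, 9.10% down) and 18.3% with RLE factors, and DESeq2 called 8, where it called 16.6%. After median-ratio scaling limma called 10 (5 up, 5 down), where 18.7% of all genes were called, 8.74% up and 9.99% down. In KO1 none of the 42 passed limma's test, where 1.06% of all genes did. An unadjusted limma p under 0.05 was found for 7 of 42 members in KO1, beside 1304 of 10238 genes. In KO2 it was found for 19 of 42 members, beside 3174 of 10238 genes. For KO1, edgeR and DESeq2 on the recovered reads each called 1 member, Gtse1, where edgeR called 1.14% and DESeq2 1.05% of all genes, and so did limma after median-ratio scaling, where it called 1.02%. The median log2 fold change of the members was 0.02 in KO1 and 0.01 in KO2, beside 0.02 and 0.02 for all genes tested. The median size of a member's change, regardless of sign, was 0.04 on the log2 scale in KO1 and 0.10 in KO2, beside 0.06 and 0.10 for all genes tested. Half-widths of the members' 95% intervals had a median of 0.11, so changes well under that size were not detectable at this depth and number of libraries.

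**Figure D1:**
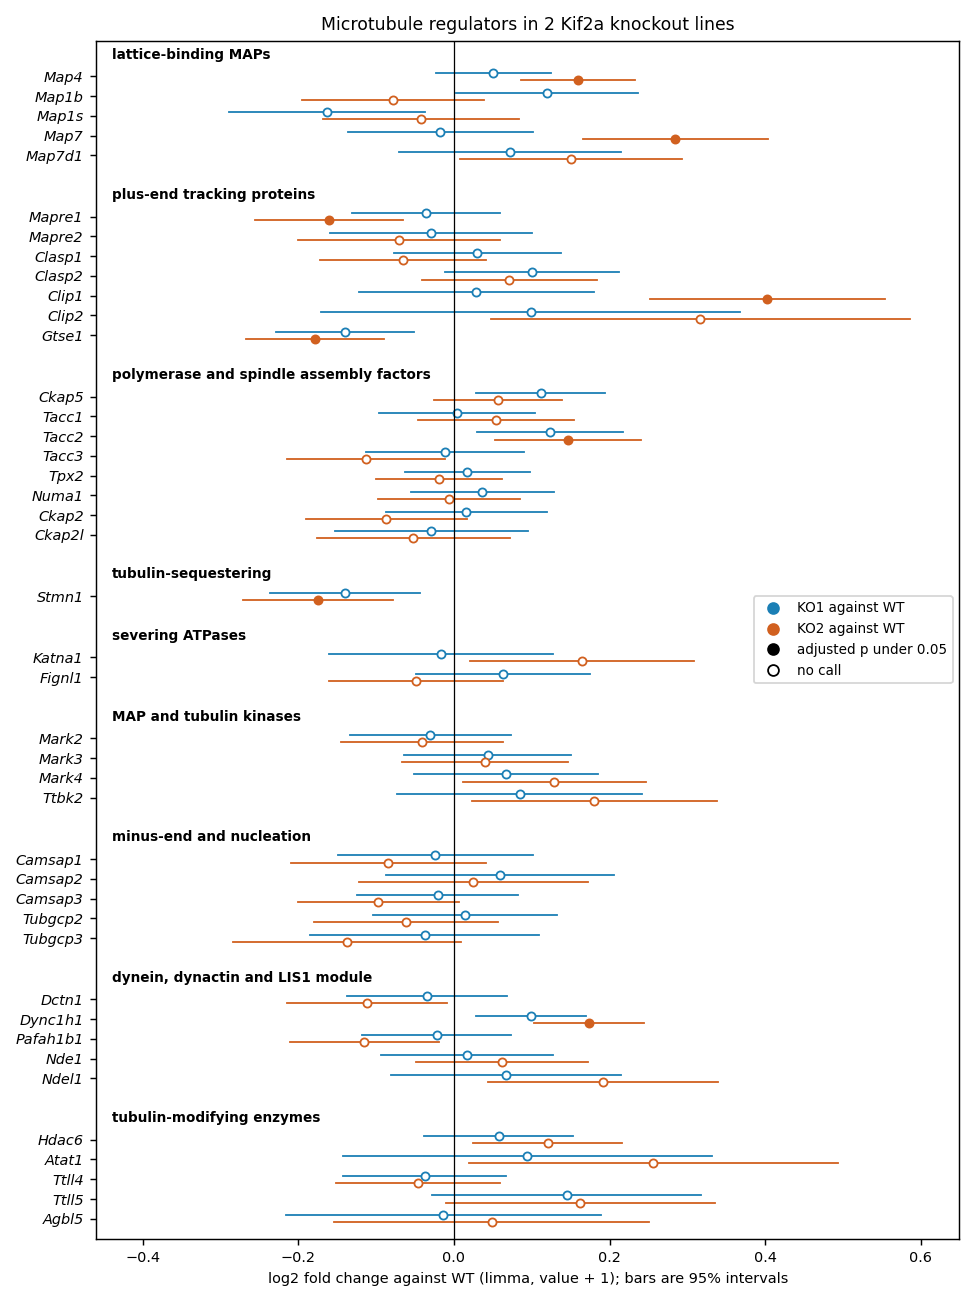
Log2 fold change of the 42 tested microtubule regulators (x axis) against WT in KO1 (blue) and KO2 (orange), by role. Bars are 95% intervals from limma, and filled points passed an adjusted p of 0.05. The 8 filled points are all KO2, 5 to the right of 0 and 3 to the left, and Clip1 at 0.40 lies farthest from 0.

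Several other gene lists differed between the groups in the same libraries, and their part in the members' changes was not tested. The summed normalised read count of the 10 pluripotency markers was 13950 to 14450 in WT, 14690 to 14820 in KO1 and 14960 to 15550 in KO2, so that no groups overlapped. In KO2 limma called 4 of these 10, or 40.0% against 18.5% of all genes tested. Dppa5a (0.26 ± 0.04, adjusted p = 1.4e-07), Tdgf1 (0.39 ± 0.04, adjusted p = 5.5e-10) and Fgf4 (0.26 ± 0.04, adjusted p = 5.3e-06) were higher and Zfp42 lower (-0.17 ± 0.04, adjusted p = 0.00051), and the Dppa5a value was 0.10 under quantile normalization. Dppa5a was called in KO1 too (0.15 ± 0.04, adjusted p = 0.016), but not under quantile normalization (0.14) or without WT replicate 2 (0.11) or KO1 replicate 1 (0.14), 2 (0.12) or 3 (0.059).

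The sum of the fibroblast markers analysed, 7 of 12, was 120.1 to 124.4 in WT, 123.7 to 127 in KO1 and 158.9 to 162.6 in KO2, and Col3a1, Dcn, Lum, Postn and Acta2 had no row to analyse here. The 3 tested, Col5a1, Pdgfrb and Fbln2, were called higher in KO2, as were 11.0% of all genes tested. The mean of Thy1 went from 7.22 in WT to 10.7 in KO2, whereas the means of the collagen genes Col1a1 (1.94 in WT and 1.60 in KO2) and Col1a2 (3.94 and 3.14) and of Pdgfra (1.94 and 1.18) were lower. For the neuronal markers analysed, 9 of 11, the sum was 201.2 to 208.5 in WT, 175.6 to 182.6 in KO1 and 140.7 to 150.1 in KO2. Tubb3, Nefl and Nefm made up most of it and were the 3 tested. All 3 were called lower in KO2, as were 7.51% of all genes tested. Nefm was also called lower in KO1 (lost when replicate 1 of either group was left out). Of the other 6, all low, 5 had higher means in KO2 than in WT, among them Sox1 (5.19 in WT and 6.38 in KO2) and Map2 (2.18 and 2.84). For the primitive endoderm markers, 3 of 9 without Gata6, Sox17, Sox7, Foxa2, Afp and Ttr, it was 18.9 to 21.6 in WT, 17.3 to 21.2 in KO1 and 24.0 to 25.2 in KO2. The higher KO2 sum came from Gata4 (12.6 in WT and 20.2 in KO2), since Dab2 (5.90 and 3.42) and Pdgfra had lower means. The 20 G2/M genes, expressed around mitosis, summed to 9067 to 9291 in WT, 9129 to 9484 in KO1 and 8730 to 9125 in KO2. By limma 5 of them (Cdc20, Ube2c, Birc5, Hmgb2 and Ccna2) were called lower in KO2, 25.0% of 20. Of all genes tested 18.5% were called in KO2, 7.51% of them lower. Of the 5, Cdc20 and Ube2c kept the call with each library left out. In bulk RNA, fewer cells of a type and less RNA per cell cannot be told apart.

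Of the 8 members called in KO2, 4 have exactly 1 listed transcription start in RefSeq, and the 250 bases before that start are shown because they are the promoter letters of members that moved in the same line, 3 of them up and Mapre1 down. The windows are chr10:20148670-20148919 on the plus strand for Map7, chr5:123684362-123684611 on the minus strand for Clip1, chr12:110601145-110601394 on the plus strand for Dync1h1 and chr2:153741037-153741286 on the plus strand for Mapre1, all in GRCm38.p6. Capitals mark CCAAT (the CCAAT box), TTTGAA (the cell cycle homology region), GGGCGG (the GC box) and TATAAA (the TATA box), on either strand, written 5' to 3' along the gene's strand.
Map7: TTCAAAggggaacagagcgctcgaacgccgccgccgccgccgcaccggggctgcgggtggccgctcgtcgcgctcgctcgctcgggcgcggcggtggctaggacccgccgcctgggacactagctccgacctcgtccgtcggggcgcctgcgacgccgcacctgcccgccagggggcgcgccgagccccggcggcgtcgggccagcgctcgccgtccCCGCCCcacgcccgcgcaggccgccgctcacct
Clip1: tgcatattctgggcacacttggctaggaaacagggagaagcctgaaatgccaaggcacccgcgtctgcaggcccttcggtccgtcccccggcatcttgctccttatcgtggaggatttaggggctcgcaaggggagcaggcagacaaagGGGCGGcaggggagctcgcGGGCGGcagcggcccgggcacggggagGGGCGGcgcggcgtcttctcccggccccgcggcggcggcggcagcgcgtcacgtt
Dync1h1: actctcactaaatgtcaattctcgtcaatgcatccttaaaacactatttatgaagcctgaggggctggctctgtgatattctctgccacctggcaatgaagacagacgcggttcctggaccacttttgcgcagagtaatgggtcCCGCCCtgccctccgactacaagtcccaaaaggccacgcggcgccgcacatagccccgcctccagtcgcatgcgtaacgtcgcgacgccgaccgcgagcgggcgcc
Mapre1: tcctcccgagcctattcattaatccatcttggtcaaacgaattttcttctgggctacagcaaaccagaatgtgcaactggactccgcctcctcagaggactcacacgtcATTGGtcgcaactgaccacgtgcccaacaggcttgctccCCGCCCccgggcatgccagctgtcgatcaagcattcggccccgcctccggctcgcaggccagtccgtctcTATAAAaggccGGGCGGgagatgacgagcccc

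The Map7 window was 80.4% G and C and held 1 GC box and 1 cell cycle homology region. The Clip1 window, 69.6% G and C, held 3 GC boxes, and the Dync1h1 window, 58.0% G and C, held 1. The Mapre1 window, 59.2% G and C, held 1 CCAAT box, 2 GC boxes and 1 TATA box. RefSeq gave 53 promoters for 37 of the 46 members. A GC box stood in 58.5% of these 53 windows, in 60.5% of the 10408 windows of tested genes and in 32.7% of all 32851. The CCAAT box stood in 39.6%, 36.1% and 33.8% of these sets, the cell cycle homology region in 17.0%, 10.2% and 16%, and the TATA box in 7.55%, 5.73% and 12.4%. The GC box, found in all 4 windows, thus stood in most promoters of tested genes, and a match describes the letters only.

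Among the lattice-binding MAPs, Map7 and Map4 rose in KO2 and Map1b separated the lines. Map7 encodes ensconsin, which recruits kinesin-1 to microtubules. Its normalised read counts were 114, 115 and 116 in WT, 114, 108 and 119 in KO1, and 139, 145 and 136 in KO2. All KO2 libraries lay above all others, while KO1 straddled WT. Against WT the log2 change was 0.28 ± 0.06 in KO2 (adjusted p = 0.00039) and -0.02 ± 0.06 in KO1 (adjusted p = 0.95), and KO2 exceeded KO1 by 0.30 ± 0.06 (adjusted p = 0.00036). Both calls of Map7 were kept whichever of the 9 libraries was left out. An antisense gene shares 332 bases, 4.18%, of the Map7 exons, and whether reads were counted by strand is not stated.

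Map4, the main MAP of non-neuronal cells, which favours assembly and stabilises the lattice, was the most abundant member of this role per length, at 68.9 ± 1.42 normalised reads per kilobase of exon in WT. The WT libraries had 1034, 1028 and 1068 normalised reads, those of KO1 1075, 1067 and 1100, and those of KO2 1153, 1165 and 1178. The groups KO1 and WT overlapped in 1 pair of libraries only, 1068 in WT against 1067 in KO1, and all KO2 libraries lay above them. Map4 rose by 0.16 ± 0.04 in KO2 (adjusted p = 0.0013), and its value in KO1 was 0.05 ± 0.04 (adjusted p = 0.62). KO2 exceeded KO1 by 0.11 ± 0.04 (adjusted p = 0.048), but this call was lost without any 1 library except WT replicate 2, with adjusted p-values of 0.056 to 0.18, and also without the filter on low values (0.057) and with the replicate number as a block (0.065).

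Map1b, a MAP best known from growing axons, went the other way between the lines. Normalised reads came to 127, 128 and 122 for WT, 135, 138 and 135 for KO1 and 120, 113 and 123 for KO2. KO1 lay above every WT library, and KO2 overlapped WT at its upper end. Neither difference from WT was called, at 0.12 ± 0.06 in KO1 (adjusted p = 0.38) and -0.08 ± 0.06 in KO2 (adjusted p = 0.38), while KO2 was lower than KO1 by 0.20 on the log2 scale (log2 change -0.20 ± 0.06, adjusted p = 0.021). That call was lost without KO1 replicate 1 (adjusted p = 0.056), KO1 replicate 2 (0.085), KO1 replicate 3 (0.059) or KO2 replicate 2 (0.12). The neuronal marker sum given above, mostly Tubb3, Nefl and Nefm, was lower in KO2 than in KO1 as well. In KO1 that sum was lower than in WT (175.6 to 182.6 against 201.2 to 208.5), while Map1b lay above WT. The part of these markers in the Map1b difference was not tested. Map1s, the short MAP1 protein, had a KO1 change of -0.16 ± 0.06 (adjusted p = 0.23), and Map7d1, the paralog of Map7, a KO2 change of 0.15 ± 0.07 (adjusted p = 0.14). Neither passed the test.

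The plus-end tracking proteins held the largest change of the 42 members tested, a rise of Clip1 in KO2, beside falls of Mapre1 and Gtse1. Clip1 encodes CLIP-170, a CAP-Gly protein that follows growing plus ends. Its normalised read counts were 69.6, 55.5 and 64.4 in WT, 63.7, 61.7 and 67.3 in KO1, and 84.3, 85.7 and 80.6 in KO2. KO1 lay inside the WT range and KO2 above both. Clip1 rose 1.32-fold in KO2, by 0.40 ± 0.08 (adjusted p = 8.9e-05), against 0.03 ± 0.08 in KO1 (adjusted p = 0.93), and KO2 exceeded KO1 by 0.37 ± 0.08 (adjusted p = 0.00049). Both calls of Clip1 were kept whichever library was left out. Its paralog Clip2, which encodes CLIP-115, was lower expressed, with 114 to 185 reads per library. Its KO2 value of 0.32 ± 0.13 did not pass (adjusted p = 0.093), but passed without WT replicate 1 (0.41, adjusted p = 0.049) and without KO2 replicate 3 (0.42, adjusted p = 0.036).

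Mapre1 encodes EB1, the protein that marks growing plus ends and to which CLIP-170 and many other plus-end proteins bind. The WT libraries had 290, 293 and 296 normalised reads, those of KO1 271, 293 and 293, and those of KO2 252, 260 and 274. KO2 lay below every WT library, and KO1 replicate 1 lay within the KO2 range. Mapre1 fell by 0.16 on the log2 scale in KO2 (log2 change -0.16 ± 0.05, adjusted p = 0.012), which no longer passed without WT replicate 3 (adjusted p = 0.051) or KO2 replicate 1 (adjusted p = 0.090). Its value was -0.04 ± 0.05 in KO1 (adjusted p = 0.83), and the difference between the lines, -0.12 ± 0.05, did not pass (adjusted p = 0.081), though it did without KO2 replicate 3 (adjusted p = 0.028). Mapre2, which encodes EB2, changed by -0.07 ± 0.06 in KO2 (adjusted p = 0.48), and Mapre3, which encodes EB3, was counted with only 54 to 80 reads per library and was not tested. 

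Gtse1 encodes a protein that reaches plus ends through EB1 and, in human cells, inhibits MCAK, another kinesin-13. Per length it was level with Stmn1 at the top of all members in WT, at 159.6 ± 3.85 and 159.2 ± 10.2 normalised reads per kilobase. Normalised reads came to 438, 427 and 448 for WT, 402, 378 and 412 for KO1 and 383, 408 and 370 for KO2. All 6 knockout libraries lay below all 3 WT libraries, and the lines overlapped. Gtse1 fell by 0.18 on the log2 scale in KO2 (log2 change -0.18 ± 0.04, adjusted p = 0.0027) with every library left out in turn. In KO1 the value was -0.14 ± 0.04 (adjusted p = 0.12 by limma), called by edgeR (-0.16, adjusted p = 0.033) and DESeq2 (-0.16, adjusted p = 0.042) and, by limma, after median-ratio scaling (-0.16, adjusted p = 0.040). KO2 and KO1 differed by -0.04 ± 0.04 (adjusted p = 0.65). Gtse1 is named for its expression in G2 and S phase. Of the 20 G2/M genes, 0 were called in KO1, where 1.06% of all genes were. In KO2 5 were called lower, where 7.51% of all genes were. The part of the G2/M genes in the Gtse1 difference was not tested. Clasp1 and Clasp2, which promote rescue of shrinking microtubules, had KO2 values of -0.07 ± 0.05 and 0.07 ± 0.06 (adjusted p = 0.42 and 0.41).

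**Figure D2:**
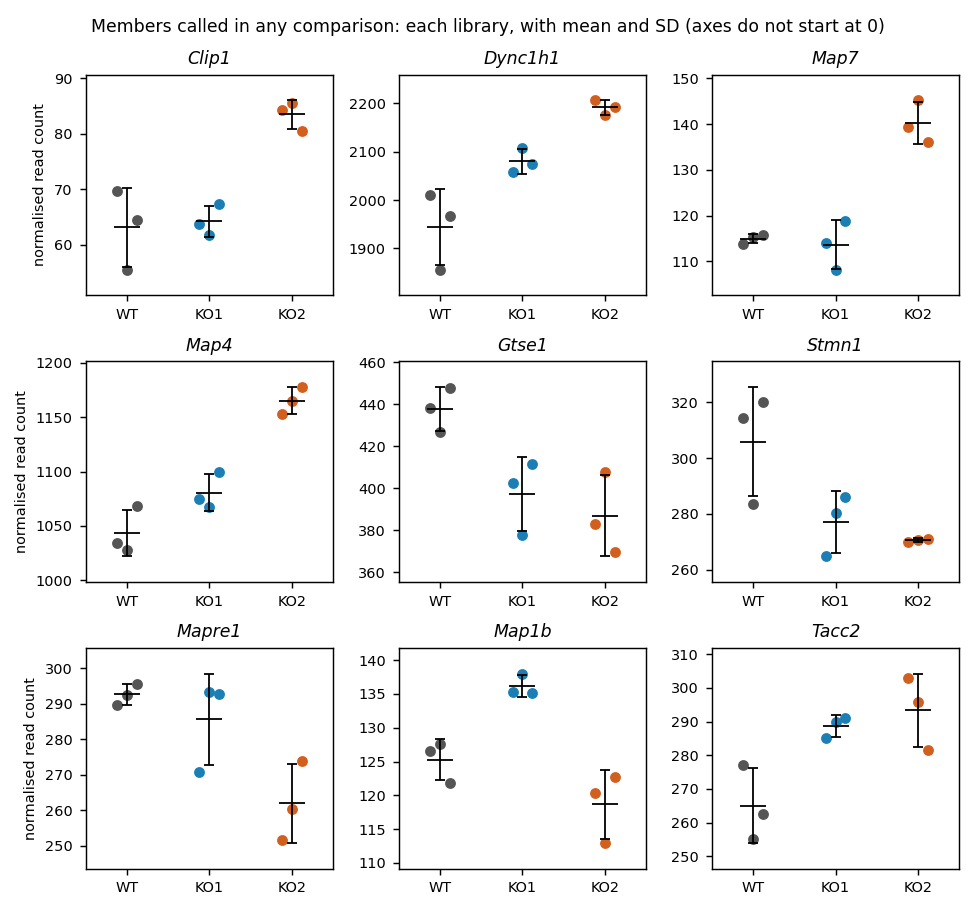
Normalised read count (y axis, not starting at 0) of the 9 members called in any comparison, in each of the 3 WT, 3 KO1 and 3 KO2 libraries, with mean and SD. Clip1, Map7 and Map4 stand apart in KO2, Gtse1 is below WT in all 6 knockout libraries, and Map1b is highest in KO1.

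Of the polymerase and spindle assembly factors, Tacc2 was the 1 of 8 called in KO2, 12.5% against 18.5% of all genes tested. Tacc2 belongs to the TACC proteins, which bind the polymerase CKAP5. Its normalised read counts were 277, 255 and 263 in WT, 285, 290 and 291 in KO1, and 303, 296 and 281 in KO2. All 6 knockout libraries lay above WT, by little over the highest WT library. Tacc2 rose by 0.15 ± 0.05 in KO2 (adjusted p = 0.022), and its KO1 value was 0.12 ± 0.05 (adjusted p = 0.21). The KO2 call was lost without WT replicate 2 (adjusted p = 0.10), WT replicate 3 (0.073), KO2 replicate 1 (0.12) or KO2 replicate 2 (0.060).

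Tpx2, which activates Aurora A kinase and nucleates spindle microtubules, was the most abundant of this role per length, at 109 ± 2.63 normalised reads per kilobase in WT. The WT libraries had 507, 498 and 523 normalised reads, those of KO1 514, 523 and 509, and those of KO2 506, 493 and 509 in KO2, so that the 3 groups overlapped. Its log2 change in KO2 was -0.02, with a 95% interval of -0.10 to 0.06, which holds no change of the size of Clip1's. Numa1, which gathers microtubules at spindle poles and anchors dynein at the cell cortex, had a KO2 change of -0.01 with an interval of -0.10 to 0.09. Ckap5, the XMAP215-type polymerase, had counts of 479, 503 and 498 in WT, 540, 517 and 542 in KO1 and 505, 502 and 532. KO1 lay above WT for Ckap5, by 0.11 ± 0.04 (adjusted p = 0.20), and KO2 overlapped both, at 0.06 ± 0.04 (adjusted p = 0.36).

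Tacc3, the TACC protein that brings CKAP5 to the spindle, had a KO2 value of -0.11 ± 0.05 (adjusted p = 0.11), which passed after median-ratio scaling (-0.14, adjusted p = 0.043). Ckap2, a spindle-binding protein, had -0.09 ± 0.05 (adjusted p = 0.25) and passed without KO2 replicate 3 (-0.15, adjusted p = 0.033). Its relative Ckap2l had -0.05 ± 0.06 (adjusted p = 0.60) and Tacc1 0.05 ± 0.05 (adjusted p = 0.49). In KO1 all 8 members of this role had changes between -0.03 and 0.12, with adjusted p-values of 0.20 to 0.99.

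Stmn1 encodes stathmin, which holds tubulin dimers in a complex and keeps them from assembling. Normalised reads came to 314, 284 and 320 for WT, 265, 281 and 286 for KO1 and 270, 271 and 271 for KO2. The KO2 libraries lay close together and below all of WT, and the highest KO1 library was above the lowest WT library. Stmn1 fell by 0.17 on the log2 scale in KO2 (log2 change -0.17 ± 0.05, adjusted p = 0.0073), which did not pass without WT replicate 3 (adjusted p = 0.076). In KO1 it stood at -0.14 ± 0.05 (adjusted p = 0.16), which passed without WT replicate 2 (-0.19, adjusted p = 0.039). The neuronal marker sums given above, mostly Tubb3, Nefl and Nefm, were lower than WT in both lines, while the means of Map2, Elavl4, Sox1 and Pax6 were higher, and their part was not tested. A gene of similar sequence, Gm11223, matches 460 bases of Stmn1 at 97.6% identity, so reads may have been shared between them by the authors' counting.

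The severing ATPases cut microtubules, and only Katna1 and Fignl1 were expressed highly enough to be tested. Katna1, the catalytic subunit of katanin, was the most abundant per length at 38.2 ± 3.89 normalised reads per kilobase in WT. Its normalised read counts were 81.6, 76.5 and 93.2 in WT, 79.8, 87.2 and 80.7 in KO1, and 89.1, 89.4 and 103 in KO2. KO2 lay above KO1 and overlapped WT at WT replicate 3. Its KO2 change of 0.16 ± 0.07 did not pass (adjusted p = 0.10) but did without WT replicate 3 (0.24, adjusted p = 0.031). Fignl1, a fidgetin relative, had a KO2 change of -0.05 ± 0.06 (adjusted p = 0.59). Katnal1, a katanin paralog, had 55 to 117 reads per library. Fign, which encodes fidgetin, had 7 to 21, and its normalised read counts were 1.45, 2.44 and 2.23 in WT, 1.48, 1.58 and 1.91 in KO1, and 1.06, 0.828 and 0.925 in KO2. All KO2 libraries of Fign lay below the others, and in a fit without the filter on low values the KO2 change was -0.64 ± 0.24 (adjusted p = 0.074).

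None of the 4 kinases tested was called. Of all genes 1.06% were called in KO1 and 18.5% in KO2, so no call among 4 is not a result about the kinases. The MARK kinases phosphorylate MAPs and so release them from microtubules, and TTBK2 is a tau-tubulin kinase that, in human cells, phosphorylates KIF2A. Mark4 was the most abundant per length, at 27.8 ± 1.05 normalised reads per kilobase in WT, with normalised read counts of 135, 125 and 129 in WT, 140, 126 and 142 in KO1, and 144, 145 and 138 in KO2. KO2 lay above WT for Mark4, by 0.13 ± 0.06 (adjusted p = 0.12). Ttbk2 had 64.0, 61.1 and 69.9 in WT, 67.6, 68.8 and 70.3 in KO1 and 73.3, 64.1 and 85.1 in KO2, a spread in KO2 wider than its distance from WT. Its KO2 change was 0.18 ± 0.08 (adjusted p = 0.10), which passed without KO2 replicate 2 (0.28, adjusted p = 0.015), and 29.9% of its exon bases overlap Cdan1 on the same strand. Mark2 and Mark3 had KO2 changes of -0.04 ± 0.05 and 0.04 ± 0.05. Mark1 was below the filter, with normalised read counts of 8.49, 8.14 and 7.39 in WT, 8.37, 7.88 and 9.09 in KO1, and 11.2, 13.4 and 11.9 in KO2. All KO2 libraries of Mark1 lay above all others, and without the filter its KO2 change was 0.55 ± 0.16 (limma adjusted p = 0.014).

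No member of the minus-end and nucleation role was called, in either line, of 5 tested. Of all genes 1.06% were called in KO1 and 18.5% in KO2, so no call among 5 is not a result about the role. CAMSAP proteins bind and protect free minus ends, and TUBGCP2 and TUBGCP3 are core subunits of the gamma-tubulin complex. Camsap3, the most abundant of them per length at 37.0 ± 1.21 normalised reads per kilobase in WT, had normalised read counts of 235, 222 and 222 in WT, 216, 219 and 234 in KO1, and 223, 214 and 197 in KO2, with overlap between all groups. In KO2 the point estimates of 4 of the 5 were negative: -0.10 ± 0.05 for Camsap3, -0.08 ± 0.06 for Camsap1, -0.06 ± 0.06 for Tubgcp2 and -0.14 ± 0.07 for Tubgcp3. Of all 10238 genes tested 4693 were negative in KO2. The 12 other genes of this role in the wider list given below had 5 positive and 7 negative values, with 2 called higher. Camsap2 stood at 0.02 ± 0.07. The adjusted p-values of the 5 lay between 0.19 and 0.85, so none of these values differed beyond the test.

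In the dynein module, limma called 1 of the 5 genes tested in KO2, the heavy chain gene Dync1h1, which rose. Of all genes tested 18.5% were called in KO2, so 1 call among 5 is not a result about the module. A missing call does not show a smaller change than that of Dync1h1. The KO2 change was 0.17 for Dync1h1 and 0.19 for Ndel1, beside 0.06 for Nde1, -0.11 for Dctn1 and -0.12 for Pafah1b1. Dync1h1 encodes the heavy chain of cytoplasmic dynein, the motor subunit. It was the most abundant member by read count, and its normalised read counts were 2010, 1856 and 1966 in WT, 2058, 2108 and 2075 in KO1, and 2207, 2176 and 2192 in KO2. These 3 groups did not overlap, in the order WT, KO1, KO2. Dync1h1 rose by 0.17 ± 0.04 in KO2 (adjusted p = 0.00028), kept with any library left out. Its KO1 value was 0.10 ± 0.04 (adjusted p = 0.18), and KO2 exceeded KO1 by 0.08 ± 0.04 (adjusted p = 0.18), which did not pass. A gene on the opposite strand, Gm35558, shares 403 bases, 2.57%, of its exons.

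Dctn1, the p150 subunit of dynactin, had a KO2 value of -0.11 ± 0.05 (adjusted p = 0.13), which passed without KO2 replicate 2 (-0.17, adjusted p = 0.027). Pafah1b1 encodes LIS1, which binds the dynein motor domain and helps it into its active form. The WT libraries had 290, 304 and 274 normalised reads, those of KO1 282, 285 and 287, and those of KO2 259, 260 and 282. KO2 overlapped WT through KO2 replicate 3. The KO2 value of Pafah1b1, -0.12 ± 0.05, did not pass by limma (adjusted p = 0.084), and passed by edgeR (-0.13, adjusted p = 0.042), after median-ratio scaling (adjusted p = 0.033), without WT replicate 3 (adjusted p = 0.048) and without KO2 replicate 3 (adjusted p = 0.020). Ndel1, which links LIS1 to dynein, had normalised read counts of 63.1, 58.2 and 61.7 in WT, 66.6, 59.6 and 65.8 in KO1, and 68.7, 68.6 and 72.1 in KO2. KO2 lay above all others for Ndel1, by 0.19 ± 0.07 over WT (adjusted p = 0.060), while its paralog Nde1 stood at 0.06 ± 0.05 (adjusted p = 0.47).

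The 5 tubulin-modifying enzymes had no call. Of all genes 1.06% were called in KO1 and 18.5% in KO2, so no call among 5 is not a result about these enzymes. HDAC6 removes the acetyl group that ATAT1 adds to alpha-tubulin inside the microtubule, TTLL4 and TTLL5 add glutamates to tubulin, and AGBL5 trims them. Hdac6, the most abundant per length at 41.8 ± 1.07 normalised reads per kilobase in WT, had normalised read counts of 250, 237 and 243 in WT, 261, 245 and 254 in KO1, and 274, 260 and 260 in KO2. KO2 lay above every WT library and overlapped KO1. The KO2 values were 0.12 ± 0.05 for Hdac6 (adjusted p = 0.068) and 0.26 ± 0.12 for Atat1 (adjusted p = 0.13). Atat1 was counted with 187 to 294 reads per library and passed without WT replicate 2 (0.37, adjusted p = 0.044). Ttll4, Ttll5 and Agbl5 had KO2 changes of -0.05 ± 0.05, 0.16 ± 0.09 and 0.05 ± 0.10, with adjusted p-values of 0.58, 0.19 and 0.79.

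**Figure D3:**
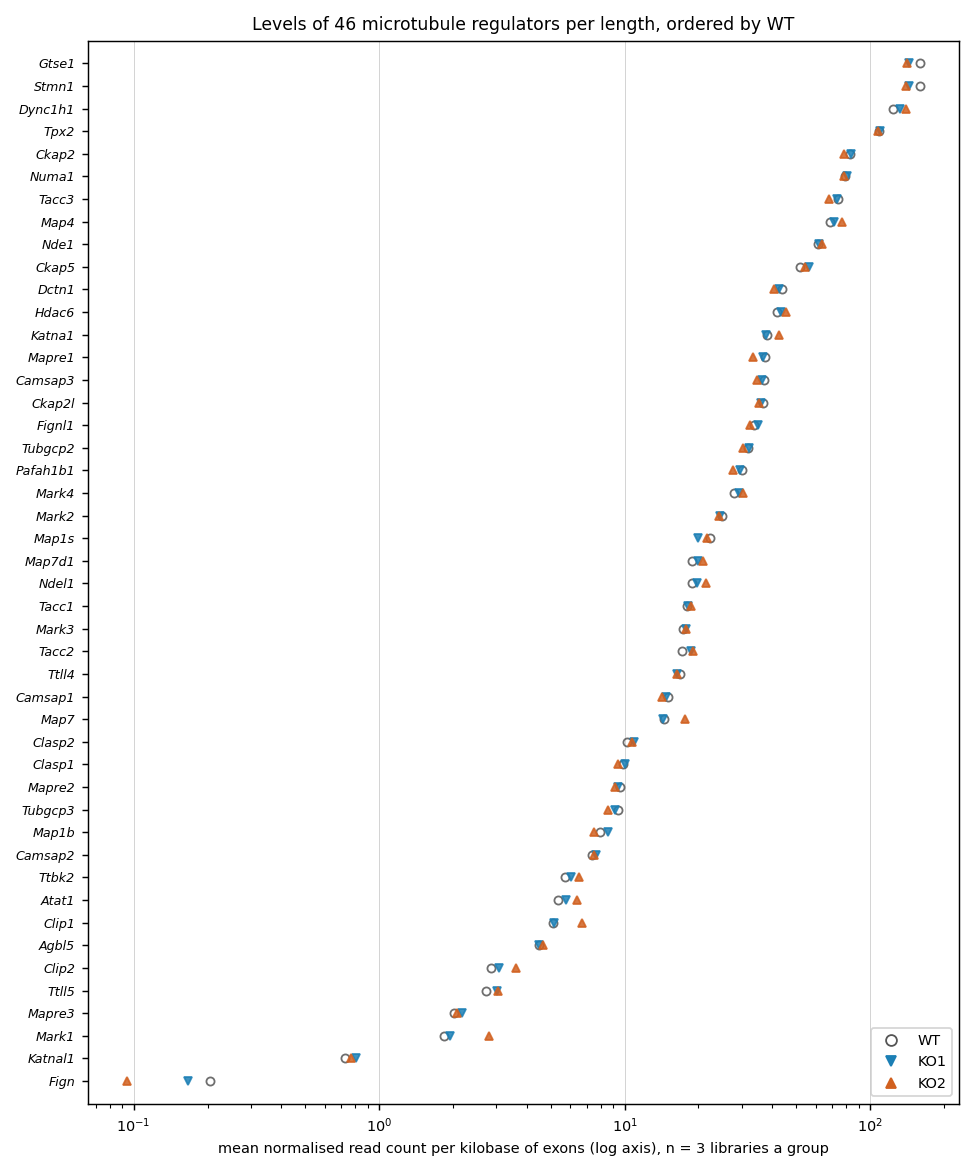
Mean normalised read count per kilobase of exon (x axis, log scale) of the 46 members in WT, KO1 and KO2, ordered by WT. The order runs from Gtse1 and Stmn1 at 159.6 and 159.2 down to Fign at 0.205 in WT, and the 3 groups lie nearly on each other except for members at the low end such as Mark1 and Fign.

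The order of levels was much the same in the 3 groups, with Gtse1, Stmn1, Dync1h1 and Tpx2 at the top. In WT the levels per kilobase of Gtse1 and Stmn1 did not differ beyond their spread, and Dync1h1 followed at 124 ± 5.08 and Tpx2 at 109 ± 2.63. Ckap2, Numa1 and Tacc3 came next at 82.9 ± 2.52, 78.9 ± 5.48 and 74.0 ± 4.05, with Numa1 within the spread of both its neighbours. In KO2 the levels per kilobase of Gtse1, Stmn1 and Dync1h1 were 141 ± 7.04, 141 ± 0.328 and 140.0 ± 0.976, so the distance that separated dynein heavy chain from both in WT was no longer larger than the spread. Per-length levels rest on the exon lengths of an annotation that may differ from the authors'.

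Within families, the summed level of the EB genes Mapre1, Mapre2 and Mapre3 was 49.1 ± 0.149 normalised reads per kilobase in WT, 48.2 ± 1.20 in KO1 and 44.8 ± 0.827 in KO2. The KO2 sums of 44.2, 44.4 and 45.7 lay below those of all other libraries, and Mapre1 made up 76.3% of the sum in WT, 75.9% in KO1 and 74.9% in KO2. The sum of Clip1 and Clip2 was 7.95 ± 0.929, 8.25 ± 0.294 and 10.4 ± 0.778, and Clip1 held 64.1%, 62.9% and 65.2% of it. EB sums were thus lowest, and CLIP sums highest, in the same KO2 libraries. The sum of Map7 and Map7d1 was 33.3 ± 0.566, 34.2 ± 1.51 and 38.7 ± 1.82. The CLASP sum was 20.1 ± 1.48, 21.0 ± 0.179 and 20.1 ± 0.817, and the TACC sum 109 ± 4.85, 110 ± 2.88 and 106 ± 3.14, so these groups overlapped. The kinase Mark1 went from 2.56% of the MARK sum in WT and 2.64% in KO1 to 3.71% in KO2, with Mark4 the largest share in all 3 groups at 38.7%, 39.7% and 40.4%. These sums were not tested, since the members were chosen with earlier results of these data known.

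**Figure D4:**
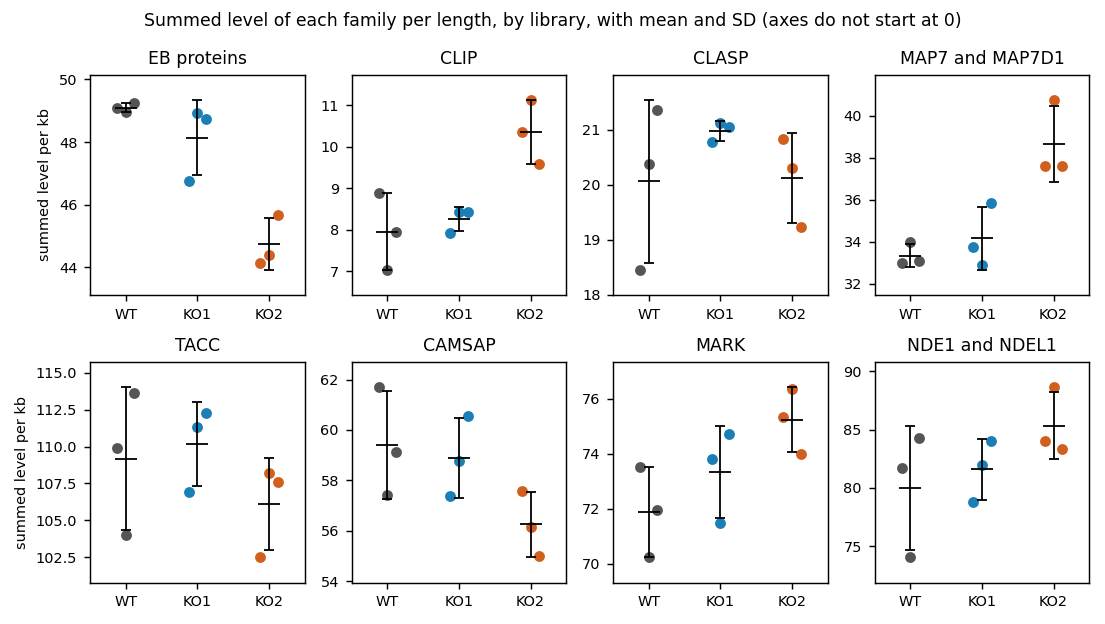
Summed normalised read count per kilobase of exon (y axis, not starting at 0) of 8 families of members in each of the 9 libraries, with mean and SD over 3 libraries. The EB sum is lowest in KO2, at 44.2 to 45.7, while the CLIP sum, at 9.58 to 11.1, and the MAP7 sum, at 37.6 to 40.8, are highest there.

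With both lines averaged, 6 members were called in the mean of KO1 and KO2 against WT, 14.3% of 42, where 9.09% of all genes tested were called, 6.16% up and 2.93% down. Gtse1 fell by 0.16 (log2 change -0.16 ± 0.04, adjusted p = 0.0038) and Stmn1 by 0.16 (-0.16 ± 0.04, adjusted p = 0.0095), while Dync1h1 rose by 0.14 ± 0.03 (adjusted p = 0.0021), Tacc2 by 0.14 ± 0.04 (adjusted p = 0.024), Map4 by 0.10 ± 0.03 (adjusted p = 0.026) and Clip1 by 0.22 ± 0.07 (adjusted p = 0.026). For Clip1 and Map4 the mean is carried by KO2, as their KO1 values above show. In 3 genes all 6 knockout libraries lay on 1 side of WT: Dync1h1 and Tacc2 above, where 6.37% of all genes lay so, and Gtse1 below, where 2.70% did. After median-ratio scaling 2 members rose and 3 fell, where 9.16% of all genes were called, 4.48% up and 4.68% down. By edgeR with TMM factors 1 rose and 3 fell (9.03% of all genes called, 4.51% up and 4.52% down), and with RLE factors 1 rose and 2 fell (9.01%, 4.57% up and 4.43% down). DESeq2 called 5 members and 8.57% of all genes.

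Only Gtse1 and Dync1h1 kept that call in the mean comparison with every library left out in turn. The adjusted p of Stmn1 was 0.073 without WT replicate 1 and 0.13 without WT replicate 3. That of Tacc2 was 0.15 without WT replicate 2, 0.10 without WT replicate 3 and 0.063 without KO2 replicate 1. That of Clip1 was 0.31 without WT replicate 2, where its mean change went from 0.22 to 0.13, 0.060 without WT replicate 3 and 0.060 without KO1 replicate 3. That of Map4 was 0.10 without WT replicate 1, 0.088 without WT replicate 2, 0.051 without KO1 replicate 1 and 0.060 without KO1 replicate 3. The count of 6 became 3 without WT replicate 2 and 3 without WT replicate 3, given without the share of all genes called in those fits. By edgeR with TMM factors the calls of Map4 (adjusted p = 0.060), Clip1 (0.057) and Tacc2 (0.057) were lost as well. With both lines fitted as 1 group only Gtse1 (adjusted p = 0.048) and Dync1h1 (adjusted p = 0.049) passed, where 2.11% of all genes did.

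Members whose libraries did not overlap WT were also listed line by line, and not all of these were called. In KO1, 4 of the 42 members tested lay above all WT libraries (Ckap5, Dync1h1, Map1b and Tacc2) and 2 below (Gtse1 and Map1s). Of all genes, 13.0% lay above and 5.20% below. By limma none of these members was called in KO1. In KO2, 10 of the 42 lay above (Clip1, Dync1h1, Hdac6, Map4, Map7, Map7d1, Mark4, Ndel1, Tacc1 and Tacc2). Another 3 lay below (Gtse1, Mapre1 and Stmn1). Of all genes, 18.7% lay above and 13.5% below. Hdac6, Map7d1, Mark4, Ndel1 and Tacc1 were not called in KO2. Both comparisons use the same 3 WT libraries, so their values are set side by side and not counted against each other.

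The lines were compared directly, since a call in 1 line only does not show that the lines differ. Between KO2 and KO1, 4 members were called, 9.52% of 42, where 9.92% of all genes tested were, again near the background (4.71% up and 5.22% down). Clip1, Map7 and Map4 were higher in KO2 and Map1b lower, with the values given above. Without KO1 replicate 1, 2 or 3, or without KO2 replicate 2, the count was 2, with Clip1 and Map7 called. The share of all genes called in these fits is not given. For the other 5 members called in KO2 against WT the difference between the lines did not pass. Its 95% interval was 0.00 to 0.15 for Dync1h1, -0.07 to 0.12 for Tacc2, -0.13 to 0.05 for Gtse1, -0.13 to 0.06 for Stmn1 and -0.22 to -0.03 for Mapre1 before adjustment for the number of genes tested.

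A wider list of 140 other microtubule regulators, written from general knowledge, gave 131 genes with a row and 114 tested. In KO1, 1 rose and 2 fell, 2.63% of 114 against the 1.06% of all genes. In KO2, 4 rose and 9 fell, 11.4% against 18.5%. In the mean of both lines 5 rose and 3 fell, 7.02% against 9.09%, and between KO2 and KO1, 1 was higher and 4 lower, 4.39% against 9.92%. The 13 calls in KO2 became 5 without WT replicate 2, 6 without WT replicate 3 and 8 without KO2 replicate 1. The calls over all genes may have moved in these fits too, and their share is not given here. The median log2 change of this list was 0.02 in KO1 and -0.01 in KO2. Stmn2, the stathmin paralog, had normalised read counts of 215, 229 and 227 in WT, 185, 199 and 191 in KO1, and 189, 201 and 209 in KO2. All 6 knockout libraries of Stmn2 lay below WT, like those of Gtse1. It fell by 0.22 in KO1 (log2 change -0.22 ± 0.05, adjusted p = 0.013) and by 0.16 in KO2 (-0.16 ± 0.05, adjusted p = 0.020), and the KO1 call was lost without WT replicate 2 (adjusted p = 0.079), WT replicate 3 (0.081), KO1 replicate 1 (0.15) or KO1 replicate 3 (0.054).

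The wider list held 24 other dynein, dynactin and LIS1 genes that were tested, of which 1 rose and 2 fell in KO2, 12.5% against 18.5% of all genes tested. Dynll1, a dynein light chain that also serves other complexes, had 384, 358 and 365 in WT, 359, 384 and 366 in KO1 and 325, 324 and 337 in KO2. All KO2 libraries lay below all others, by -0.17 ± 0.04 against WT (adjusted p = 0.0054, and 0.052 without WT replicate 1). Dynlt1b, of the Tctex light chain family, had 39.3, 37.1 and 42.7 in WT, 38.6, 43.4 and 36.4 in KO1 and 48.8, 46.3 and 51.9 in KO2. It rose in KO2 by 0.30 ± 0.09 (adjusted p = 0.013), not kept without WT replicate 2 (adjusted p = 0.074) or KO2 replicate 3 (adjusted p = 0.062).

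Among other spindle genes of the wider list, Haus4, an augmin subunit, fell in KO2 (-0.28 ± 0.08, adjusted p = 0.0068), as did Ska2 of the kinetochore SKA complex (-0.26 ± 0.07, adjusted p = 0.0083). The Ska2 call was lost without WT replicate 3 (adjusted p = 0.054) or KO2 replicate 2 (adjusted p = 0.087). Ska1 of the same complex fell in KO1 (-0.40 ± 0.10, adjusted p = 0.025), not kept without WT replicate 1 (adjusted p = 0.13), WT replicate 3 (0.14), KO1 replicate 1 (0.20) or KO1 replicate 3 (0.078). Mzt1, a small subunit of gamma-tubulin complexes, rose in the mean of both lines (0.25 ± 0.07, adjusted p = 0.013, and 0.082 without WT replicate 2). The spectraplakin gene Macf1, a linker of actin and microtubules, rose in KO1 (0.17 ± 0.04, adjusted p = 0.015). That call was lost by DESeq2 (adjusted p = 0.080) and without WT replicate 1 (0.14), KO1 replicate 2 (0.19) or KO1 replicate 3 (0.14). In KO2 its level was 0.998 times that of WT (adjusted p = 0.97), and KO2 was lower than KO1 (-0.17 ± 0.04, adjusted p = 0.0030). Its relative Dst rose in the mean of both lines (0.12 ± 0.03, adjusted p = 0.015). That call was lost under quantile normalization (adjusted p = 0.056) and without WT replicate 1 (0.061), KO1 replicate 2 (0.053), KO2 replicate 1 (0.056) or WT replicate 2 (0.10). Nin, which encodes ninein, a protein that anchors microtubules at centrosomes, was lower in KO2 than in KO1 (-0.29 ± 0.07, adjusted p = 0.0033) with any library left out.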

How the data were processed

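Poly-A RNA of 9 libraries was prepared with a stranded TruSeq kit and read as paired ends on a NextSeq2000, per the labels' protocols. The authors' tools were HISAT2 and DESeq2 with the GRCm38 build, per the submitters' processing notes, and versions, annotation and the use of strand in counting are not stated. The deposited table holds a scaled signal per gene, made by the authors from read counts. Every value (100% in each library) was a whole multiple of 1 step per library, within 0.05 reads, so whole reads could be recovered for edgeR and DESeq2. The WT libraries held 17179732, 14960295 and 15177354 reads, those of KO1 18019079, 16962661 and 18814858, and those of KO2 15076503, 15057363 and 17575608. Chi-square per degree of freedom between libraries of a group was 2.27 to 4.38, so no pair differed by counting noise alone. This cannot tell whether libraries came from the same RNA or culture.

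limma 3.58.1 (R 4.3.3; trend and robust moderation) modelled log2(value + 1), pseudocount 1, by group for the 10238 genes whose mean value reached 10. Fold changes on this scale understate changes of low genes. Alternatives were edgeR 4.0.16 (quasi-likelihood, TMM and RLE factors), DESeq2 1.42.0, other scalings, pseudocounts and filters, each library left out, a replicate block, and both lines as 1 group. The fits were tested on simulated data.

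The members and lists were chosen with earlier results of these data known. The 42 tested members were compared in 4 contrasts: KO1, KO2 and their mean against WT, and KO2 against KO1. All members may be named, with libraries' values for those called and for the most abundant of each role. Of the wider list, up to 4 genes per comparison with the smallest adjusted p were named. Gene models came from GENCODE M21 and promoters from RefSeq (GRCm38.p6). Jakmip1, with more than 1 row in the table, was given no level.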

Additional observations from a re-analysis of the deposited data

Results flagged for a closer look

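In 8 of the genes named here the change in KO2 differed from the change in KO1, tested as KO2 against KO1 by limma. In that comparison 9.92% of all genes tested were called, beside 9.52% of the members and 4.39% of the wider list. Of the wider list only up to 4 called genes are named. The difference (change in KO2 minus change in KO1, log2) was 0.374 for the plus-end protein gene Clip1, 0.302 for Map7 and 0.109 for Map4, and -0.198 for Map1b. Of the wider list it was -0.168 for Dynll1 and 0.308 for Dynlt1b, both dynein light chain genes, -0.169 for Macf1 and -0.292 for Nin, which encodes the centrosomal anchor ninein. All 3 KO2 libraries lay on 1 side of all 3 KO1 libraries for Clip1, Map7, Map4 and Map1b. The same held for Dync1h1, Katna1, Ndel1, Clasp1 and Pafah1b1, whose differences between the lines were not called. Such separation alone therefore does not mark a difference, and its share over all genes is not given here. The Map4 call was lost without any 1 library except WT replicate 2. That of Map1b was lost without KO1 replicate 1, 2 or 3 or KO2 replicate 2. The Dynll1 difference was lost without KO1 replicate 2 (adjusted p = 0.094), and that of Dynlt1b without KO1 replicate 1 (0.065), KO1 replicate 3 (0.12) or KO2 replicate 3 (0.071).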

How the results depend on the processing

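Over the members and the named genes of the wider list, 3397 gene values stayed on their side of the threshold under the alternatives, 77 lost a call, 25 gained one, and 0 of the called values changed sign. In KO1, the count of members called went from 0 to 1 under median-ratio scaling, edgeR with TMM or RLE factors and DESeq2, and was 0 to 1 with a library left out. In KO2 the 8 calls (5 up, 3 down) were 10 (5 up, 5 down) under median-ratio scaling, 9 (5 up, 4 down) by edgeR and 8 by DESeq2, and 6 to 11 with a library left out. In the mean of both lines the 6 calls (4 up, 2 down) were 5 (2 up, 3 down) under median-ratio scaling, 4 (1 up, 3 down) by edgeR with TMM factors, 3 (1 up, 2 down) with RLE factors and 2 with both lines as 1 group, and 3 to 7 with a library left out. Leaving out WT replicate 2 gave the 1 call in KO1, Stmn1. Between KO2 and KO1 the 4 calls were 2 to 6 with a library left out. In the wider list, of 3, 13, 8 and 5 calls, the counts with a library left out were 0 to 3 in KO1, 5 to 13 in KO2, 2 to 8 in the mean and 3 to 8 between the lines. They moved by over 1.5 times in KO1 without WT replicates 1 (1 call) or 3 (1) or KO1 replicates 1 (1) or 3 (0), in the mean without WT replicates 1 (4), 2 (2) or 3 (4) or KO1 replicate 1 (4), and between the lines without WT replicate 2 (8) or KO1 replicates 1 (3) or 2 (3). Its 13 calls in KO2 (4 up, 9 down) became 7 at a mean value of at least 50 (fewer genes tested), 3 up and 13 down under median-ratio scaling and 3 up and 12 down by edgeR, and its 8 calls in the mean (5 up, 3 down) became 5 by DESeq2 (2 up, 3 down), 3 up and 4 down under median-ratio scaling and by edgeR, and 2 up and 4 down under quantile normalization. Counts in this paragraph with a library left out or a replicate block stand without the share of all genes called in the same fit. The cause of the changes in count was not tested. The median-ratio factors were 1.0004, 0.9759 and 1.0001 in WT, 1.0054, 1.0061 and 1.0145 in KO1, and 1.0049, 1.004 and 1.0155 in KO2. WT replicate 2 was changed most. Every knockout factor lay above every WT factor, so this scaling lowers knockout values against WT. Same-numbered libraries deviated with correlations of -0.129 to 0.027, so the numbers marked no strong shared deviation. Whether same-numbered libraries were handled together is not stated and cannot be told from these values. With the replicate number as a block the members called were 0, 8, 6 and 3 in the 4 comparisons. Map4 was lost between KO2 and KO1, and the wider list had 3, 12, 6 and 5 calls. Members of few reads, such as Fign with 7 to 21 per library, are limited by counting error.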
